A study of Rattus norvegicus with 61 samples.

Results

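The 150 transcripts described here had higher means in sorted blood neutrophils of the rat than in other sorted immune cells, and were hardly read in liver. They were chosen from 31196 transcripts by their measured levels. A level is given in CPM, the deposited value divided by the total of its sample and multiplied by 1000000. A transcript qualified with a mean under 1 CPM over the 15 livers, a mean of at least 2 CPM in neutrophils and a ratio above 1.5, where the ratio is the neutrophil mean plus 1 CPM over the mean of the next highest of 6 sorted cell types plus 1 CPM. This rule held for 303 transcripts, and the 150 with the highest ratios are called the members.

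The study sorted immune cells from male Sprague Dawley wild-type rats, 6 weeks old, to build reference profiles for estimating cell composition from bulk tissue. Neutrophils (Neu) and monocytes (Mon) were sorted from blood, and B cells, natural killer (NK) cells, CD4 T cells and CD8 T cells from spleen, with 6 samples of each type. Neutrophils were gated as CD45+, CD11b+, CD3-, CD45RA-, CD161- cells with intermediate CD43 and high side scatter, and monocytes by these antigens without CD43 and with low side scatter, and no antigen that marks eosinophils or basophils was part of the gates. The tissues were 5 samples of whole blood cells (WBC) and 5 spleen cell suspensions from untreated rats, both after lysis of erythrocytes, and 15 perfused livers taken 24 h after gavage. Of these livers, 5 received 0.5% methylcellulose (Ctrl), 5 received 3 g/kg acetaminophen (APAP) and 5 received 300 mg/kg 4,4'-methylene dianiline (MDA), all after a fast. Nothing in the labels says whether samples of a group came from separate rats, so p-values measure the spread between samples.

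Neutrophils are the short-lived granulocytes of the blood, made in the bone marrow and released in large numbers. They are the first leukocytes to enter injured tissue, where they follow chemokines, engulf debris and release granule enzymes and oxidants. Their mature form carries less RNA than lymphocytes or monocytes do. Neutrophils circulate in blood, whereas spleen suspensions consist mainly of lymphocytes, and the comparison of WBC with spleen sets these tissues side by side. Acetaminophen injures hepatocytes and methylene dianiline injures mainly bile ducts, and leukocytes can enter the liver in both settings.

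The transcripts carry Ensembl rat transcript identifiers, and the files do not pair them with gene names. Of the 31196 identifiers, 0 were found in the RefSeq gene table of rat assembly GRCr8, which lists 47357 genes, or in its promoter and miRNA tables. Members are therefore given by identifier or by rank, where rank 1 has the highest ratio, and neither their functions nor marker genes of other cells could be read. Sample totals ran from 3429970 estimated counts in neutrophil replicate 5 to 14146400 in an MDA liver. Neutrophil samples had correlations between 0.958 and 0.979 with each other, and no pair of samples held identical values.

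The ratio of the members ran from 61.9 at rank 1 down to 2.77 at rank 150, with a median of 4.79. It exceeded 10 in 9 members and 5 in 72. ENSRNOT00000080873, the last member, had 5.78 ± 2.06 CPM in neutrophils (SD, n = 6) against 1.45 CPM in NK cells. ENSRNOT00000061219, the first transcript outside, had 4.56 ± 1.83 CPM against 1.04 CPM in monocytes and a ratio of 2.73. The edge of the list thus falls inside a continuum of ratios, and these values chose the members and were not tested.

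The members covered a wide span of abundance in neutrophils. The neutrophil mean was between 2 and 10 CPM in 47 members, between 10 and 100 CPM in 71 and at least 100 CPM in 32, of which 3 reached 1000 CPM. The most abundant member was ENSRNOT00000042374, whose neutrophil samples ranged from 1082 to 1771 CPM with a median of 1365 CPM. It was followed by ENSRNOT00000003733, which ranged from 845 to 1590 CPM with a median of 1192 CPM. These transcripts differ in how much other cells hold of them. Monocytes had 130 ± 39.0 CPM of ENSRNOT00000042374 (SD, n = 6), whereas all 5 other sorted types had means of 320 to 433 CPM of ENSRNOT00000003733. The 10 most abundant members carried 51.9% of the summed neutrophil level.

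Monocytes were the cells that came nearest to neutrophils. They were listed as the next highest sorted type for 122 members, 5 of which were at 0 in every other sorted type. B cells followed with 11 members, NK cells with 9, CD8 T cells with 7 and CD4 T cells with 1. The next highest mean was under 1 CPM in 38 members. The lowest neutrophil sample lay above the highest of the other 30 sorted samples in 131 members, a separation the rule itself favours.

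**Figure D1:**
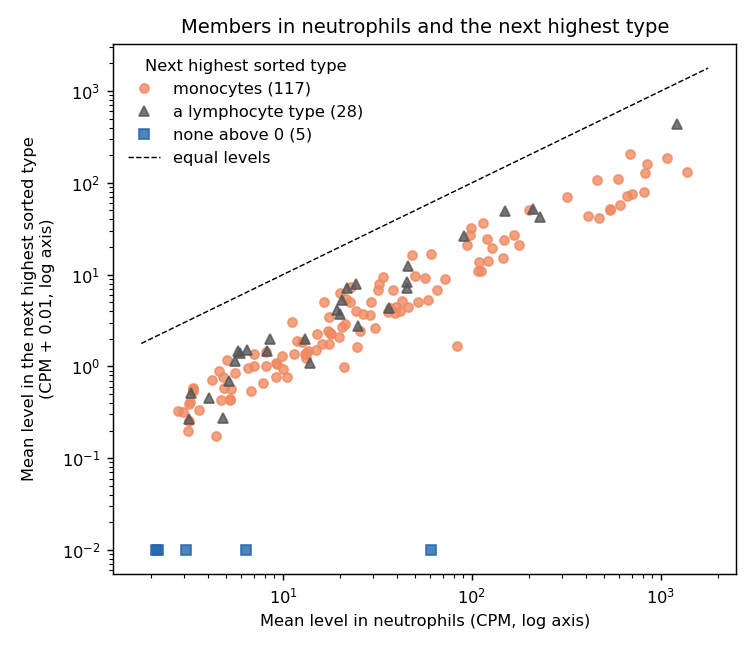
Mean level of each member in neutrophils (horizontal, CPM, log axis) and in the next highest of the other sorted types (vertical, CPM plus 0.01, log axis). Orange circles have monocytes next, grey triangles a lymphocyte type (28 members) and blue squares no other type above 0 (5 members), and all points lie under the dashed line of equal levels, as the rule required.

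Most members were steady among the neutrophil samples, but a few rested on single samples. The coefficient of variation over the 6 samples had a median of 31.5%, with quartiles of 24.1% and 43.0%, and 143 members were above 0 in all 6. Members of lower level varied more, with a median of 40.2% for those of 2 to 10 CPM and 24.6% for those of 100 CPM or more. Neutrophil replicate 4 was the highest sample for 73 members and replicate 2 for 3.

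The member of the highest ratio was one of those that rest on a single sample. ENSRNOT00000011314 had 365 CPM in neutrophil replicate 2 and 0 CPM in the other 60 samples of the series. Ranks 92 and 124 were likewise above 0 in only 1 neutrophil sample, and in 6 members 1 sample held over 50% of the summed neutrophil level. ENSRNOT00000087826, at rank 2, was present in all neutrophil samples, between 35.8 and 120 CPM with a median of 89.8 CPM. Its ratio was 31.8, and of the monocyte samples only replicate 4 was above 0, at 9.88 CPM.

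Summed over the 150 members, the level ordered the groups from neutrophils through WBC, monocytes, spleen and the sorted lymphocytes to the livers. Neutrophil samples summed to between 13141 and 21471 CPM, with a median of 17080 CPM. Monocyte samples summed to between 1814 and 3503 CPM, and the samples of the lymphocyte types to between 745 and 1077 CPM. The 4 lymphocyte types overlapped one another in this sum, and the WBC range overlapped that of monocytes. In each of these groups a few abundant transcripts dominated the sum, since the 32 members of at least 100 CPM in neutrophils made up 82.8% to 85.5% of it in neutrophils and 80.6% to 83.5% in B cells.

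**Figure D2:**
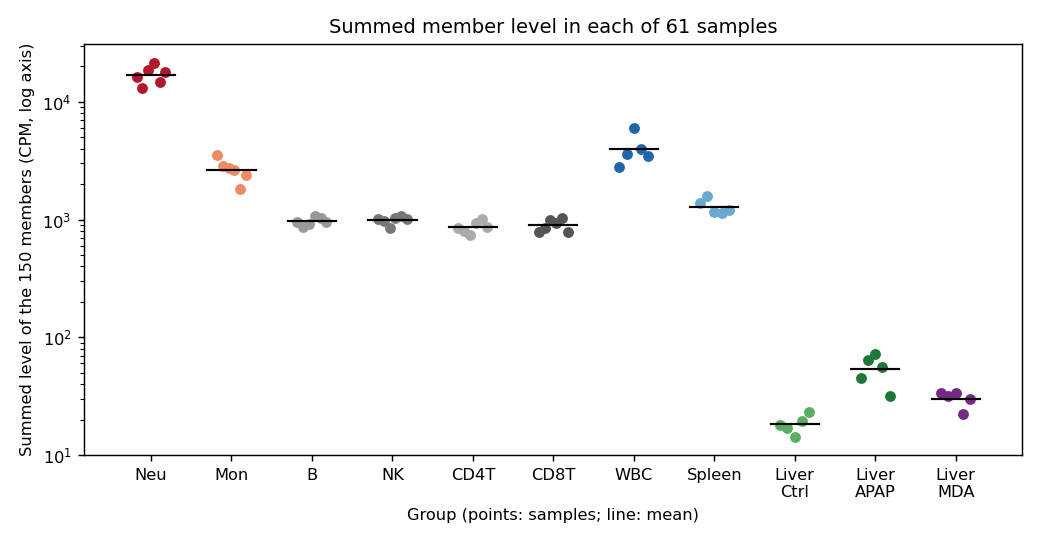
Summed level of the 150 members (vertical, CPM, log axis) in each of the 61 samples, by group, with points for samples and lines for group means. Neutrophils lie highest, WBC above spleen in every sample, and the livers lowest, with all APAP livers above all Ctrl livers in CPM, an order that overlaps once totals are scaled by TMM.

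In WBC, the members were present at a moderate share of their neutrophil level. The rule did not use the WBC and spleen samples, but it used neutrophils and monocytes sorted from blood and lymphocytes sorted from spleen. The summed level in WBC was 2797, 3593, 6016, 3979 and 3449 CPM in replicates 1 to 5, and in spleen 1370, 1574, 1165, 1129 and 1198 CPM. WBC replicate 3 was the highest, and the lowest WBC sample lay above the highest spleen sample. For single members, the WBC mean was 22.8% of the neutrophil mean at the median, with quartiles of 17.4% and 27.5%, and 132 members lay between 10% and 40%. The spleen mean was 5.43% of the neutrophil mean at the median, with quartiles of 3.01% and 10.3%. From RNA of bulk samples alone, fewer cells of a type and less RNA per cell cannot be told apart. The paper also measured cell proportions in spleen, blood and liver by flow cytometry, and those were not used here.

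The position between cell types carried over to the tissues. The WBC mean lay between the monocyte and the neutrophil mean for 126 members, while the spleen mean reached the monocyte mean for 29. Members with monocytes next had a spleen level of 4.35% of the neutrophil level at the median, against 18.6% for the 28 members with a lymphocyte type next. In WBC the medians of these 2 sets were 22.5% and 25.1%. These are descriptions of sets that the sorted levels define, and no test was made between them.

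A few members departed from this proportion. ENSRNOT00000040954 was the only member with a higher mean in WBC than in neutrophils, at 702% of it. Its WBC values were 30.6, 29.4, 80.8, 48.0 and 57.7 CPM, its neutrophil samples ranged from 4.72 to 8.84 CPM with a median of 7.10 CPM, and its spleen values ran from 2.54 to 4.41 CPM. Every WBC sample thus lay above every sample of the 6 sorted types, the highest of which outside neutrophils had 2.69 CPM. The next highest share was that of ENSRNOT00000009911, with 62.4%, which was above 0 in 4 of the 6 neutrophil samples and 4 of the 5 WBC samples. At the other end, 5 members were at 0 in all WBC samples. Among them, ENSRNOT00000077000 was above 0 in neutrophil replicates 1, 5 and 6, at 5.88, 18.8 and 13.7 CPM, and in spleen replicates 1 and 5, at 7.21 and 8.76 CPM.

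Most members were higher in WBC than in spleen. Of the 150 members, 146 were tested with edgeR's quasi-likelihood test and Benjamini-Hochberg adjustment over 17791 transcripts, and 112 were called higher in WBC and 1 lower at an adjusted p under 0.05. Among all transcripts tested, 19.2% were called higher and 18.3% lower. The members' share called higher was 76.7%. The rule favoured this direction, because it set neutrophils sorted from blood above lymphocytes sorted from spleen. Cell type and source tissue cannot be told apart in that choice, so the share describes the list and lends it no independent support. The log2 fold change had a median of 2.25 over the members tested and -0.02 over all transcripts, and ran from 0.49 to 7.43 in the members called higher. The 5 WBC samples lay above the 5 spleen samples in 95 members and below them in 1, against 8.54% and 23.1% of all transcripts.

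Members of every abundance were called. Of the 32 members with at least 100 CPM in neutrophils, 29 were called higher and 1 lower, of the 70 tested between 10 and 100 CPM 57 were higher, and of the 44 tested between 2 and 10 CPM 26 were higher. A filter on low values enters here, because 11 of the 146 tested members passed it only through WBC or spleen, and 7 of those were called higher. Of the 33 members tested and not called, 26 had a log2 fold change above 0. For comparison, the 150 monocyte transcripts that the same rule chose gave 80 higher and 3 lower of 149 tested, and those of B cells 5 higher and 105 lower of 148.

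**Figure D3:**
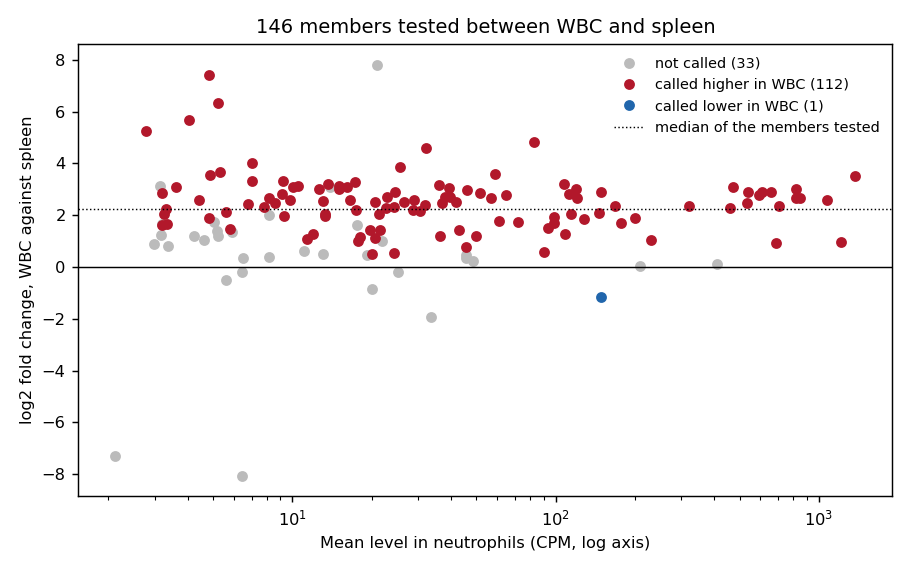
Log2 fold change of WBC against spleen (vertical) for the 146 members tested, by mean level in neutrophils (horizontal, CPM, log axis), with red for called higher (112), blue for called lower (1) and grey for not called (33). The dotted line is the median of 2.25, and the red points spread over the whole range of neutrophil levels.

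The separated members with the largest fitted fold changes were at 0 in most or all spleen samples. ENSRNOT00000087826, described above, had 14.6, 20.4, 42.9, 28.8 and 25.2 CPM in WBC, and in spleen 5.23 CPM in replicate 2 and 0 CPM in the others. All WBC samples lay above all spleen samples, with a log2 fold change of 4.82 (SE 0.87, edgeR adjusted p = 0.0015). ENSRNOT00000067781 had 0.240, 0.845, 0.740, 0.409 and 0.426 CPM in WBC and 0 CPM in all spleen samples. Its WBC mean was therefore at least 1.99-fold higher, taking a floor of 3 counts in each spleen sample (edgeR adjusted p = 0.0020). However, it passed the filter only through WBC, and WBC replicate 1 was itself under 3 counts.

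The 1 member called lower in WBC was ENSRNOT00000029755. Its WBC values were 14.3, 26.9, 35.4, 21.7 and 35.8 CPM, and its spleen values 75.9, 100, 48.2, 44.2 and 64.6 CPM. The groups did not overlap, and the log2 fold change was -1.15 (SE 0.26, edgeR adjusted p = 0.0054). In neutrophils it ranged from 45.2 to 204 CPM, with a median of 166 CPM, and B cells had the next highest mean at 49.7 ± 13.6 CPM (SD, n = 6). Its spleen mean of 66.6 CPM was thus above that of every sorted type from spleen. In all, 10 members had a higher mean in spleen than in WBC.

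Blood samples differed in their members as a block. WBC replicate 3 was the highest of the 5 for 113 of the 145 members above 0 in WBC. The share was 34.7% among 17543 transcripts above 0 there with a mean of at least 0.1 CPM over WBC and spleen, a filter not applied to these members. Spleen replicate 2 was the highest for 71 of 143 members, against 33.1% of 17610 transcripts filtered in the same way. The median over members of the percentage of the neutrophil level ranged from 15.1% to 32.8% among WBC samples and from 3.56% to 6.20% among spleen samples.

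In the livers the members were sparse by choice, and their summed level was 0.108% of that in neutrophils after vehicle, 0.316% after APAP and 0.177% after MDA. Ctrl livers summed to 18.2, 17.0, 14.3, 19.3 and 23.1 CPM. APAP livers summed to 44.8, 63.9, 72.6, 55.5 and 32.0 CPM, and MDA livers to 33.5, 31.8, 33.3, 22.4 and 29.8 CPM. All APAP livers lay above all Ctrl livers, MDA replicate 4 fell just under Ctrl replicate 5, and APAP replicate 5 lay within the MDA range.

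This order depended on how totals were scaled. The liver fit scaled totals by the trimmed mean of M-values (TMM), which corrects for the share taken by a few abundant transcripts. In that fit of the 15 livers, the factors were 0.60 to 0.93 in Ctrl livers and 1.10 to 1.37 in APAP livers. A separate TMM over all 61 samples, which has other factors, was used for the sums. They were then 33.0 to 48.1 CPM in Ctrl, 40.6 to 78.3 CPM in APAP and 36.1 to 49.5 CPM in MDA livers, so that the groups overlapped. The number of all transcripts above 0 moved the same way, from 16702 to 17603 in Ctrl livers to between 17280 and 18265 in APAP livers. Its part in the sums was not tested.

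Many members were not read in liver at all. In all 15 livers 26 members were at 0, and 16 were above 0 in every one. Of the 150, 56 were at 0 in all Ctrl livers, 40 in all APAP livers and 52 in all MDA livers. Single livers held between 46 and 67 members above 0 after vehicle, 64 to 85 after APAP and 59 to 71 after MDA. The highest value of any member in any liver was 5.66 CPM, and the mean reached 1 CPM in 19 members after APAP, 6 after MDA and 2 after vehicle. Among the 124 members above 0 in some liver, the highest group mean was that of APAP in 82, of MDA in 24 and of Ctrl in 18. Over all 9317 transcripts with a liver mean above 0 and under 1 CPM, the corresponding shares were 44.0%, 32.0% and 24.1%.

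The make-up of the sum in liver differed from that in blood. The 32 members with at least 100 CPM in neutrophils, which made up 82.1% to 83.5% of the sum in WBC, gave 25.1% to 30.1% of it in Ctrl livers, 32.8% to 53.0% in APAP livers and 26.5% to 38.0% in MDA livers. Because each member had to average under 1 CPM over the livers, an abundant neutrophil transcript could enter only with a small share there. In Ctrl livers these 32 members summed to between 3.62 and 6.09 CPM, and in APAP livers to between 10.5 and 36.1 CPM. The 47 members of 2 to 10 CPM in neutrophils went from between 2.18 and 6.01 CPM to between 8.79 and 12.4 CPM. These class sums are in CPM without TMM. With library size only, all transcripts tested shifted up after APAP by a median log2 fold change of 0.73. Class sums scaled by TMM were not computed, and the part of this shift in the rise was not tested.

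**Figure D4:**
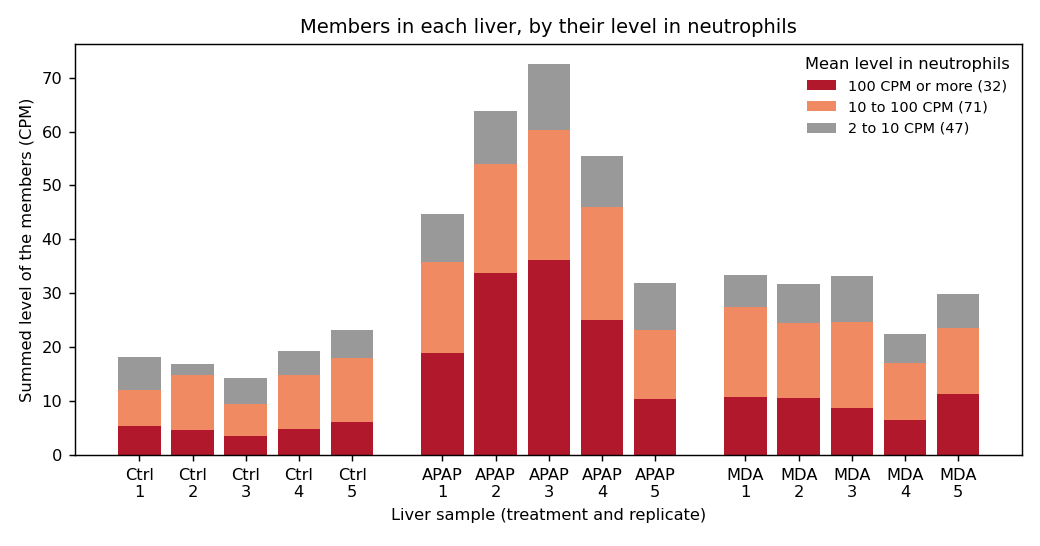
Summed level of the members (vertical, CPM) in each of the 15 livers, with bars divided by the members' mean level in neutrophils into 100 CPM or more (32 members), 10 to 100 CPM (71) and 2 to 10 CPM (47). APAP replicates 2, 3 and 4 carry the largest red part. Every Ctrl bar has a smaller red part than any APAP or MDA bar, while the other parts overlap between Ctrl and MDA. The sums are not scaled by TMM.

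Between APAP and Ctrl livers, a minority of the members changed. The filter of at least 0.1 CPM over the 15 livers left 71 members, and of these 17 were called higher after APAP and 4 lower by edgeR. Over all 18427 transcripts tested, 16.1% were called higher and 15.3% lower, against 23.9% and 5.63% of the members tested. The median log2 fold change was 0.96 over the members and 0.06 over all transcripts. Without TMM, all transcripts shifted to a median of 0.73 in this comparison and 0.54 in that of MDA with Ctrl and the members' calls became 27 higher and 2 lower after APAP. All 5 APAP livers lay above all 5 Ctrl livers in CPM for 19 of the 71 members tested, or 26.8%, against 31.8% of all transcripts. In this and the other liver comparisons, all transcripts include abundant ones, whereas the members had liver means under 1 CPM by choice. Such shares therefore set unlike levels side by side, and shares for transcripts of the same level were not computed. None of the 71 lay wholly below, against 3.7% of all transcripts. The count of members called higher was 11 without Ctrl replicate 2, 11 without APAP replicate 2 and 10 without APAP replicate 3.

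The members called higher after APAP came from all classes of neutrophil level. They had a median neutrophil mean of 114 CPM, against 33.9 CPM for the members tested and not called. Of the 25 members tested with at least 100 CPM in neutrophils, 9 were called higher, against 5 of 31 between 10 and 100 CPM and 3 of 15 under 10 CPM, and the difference between these shares was not tested. Of the 17, 14 had groups that did not overlap, and 4 passed the filter only through the APAP livers. Their log2 fold changes ran from 1.27 to 6.94, and 4 of them were at 0 in all Ctrl livers.

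Among the separated members, ENSRNOT00000023965 had the largest fitted log2 fold change, which depends on the prior count of edgeR because its Ctrl livers were at 0. Its APAP livers had 0.635, 1.13, 1.70, 2.73 and 1.27 CPM and all Ctrl livers 0 CPM. This was at least 5.82-fold higher with a floor of 3 counts per Ctrl liver (edgeR adjusted p = 0.0011). In neutrophils it ranged from 111 to 202 CPM with a median of 139 CPM, and its WBC values of 21.2 to 47.5 CPM lay above its spleen values of 5.94 to 14.6 CPM.

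ENSRNOT00000003908 behaved otherwise outside the liver. Its APAP livers had 0.923, 1.14, 1.72, 2.46 and 0.197 CPM and all Ctrl livers 0 CPM. The APAP mean was at least 5.02-fold higher (edgeR adjusted p = 0.0013), while APAP replicate 5 was itself under the floor of 3 counts. Yet its neutrophil samples split, with 9.40 and 11.6 CPM in replicates 1 and 2 and 0.953 to 3.03 CPM in the others, and WBC had only 0.295 CPM in replicate 3 and 0.169 CPM in replicate 5. All APAP livers but replicate 5 therefore had a higher level of it than any WBC sample.

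The second most abundant member was among the 17. ENSRNOT00000003733 had 0.324, 0.142, 0.524, 0.588 and 0.383 CPM in Ctrl livers and 1.79, 2.02, 1.68, 1.31 and 1.25 CPM in APAP livers. The groups did not overlap, and the log2 fold change was 1.27 (SE 0.45, edgeR adjusted p = 0.044). The most abundant member, ENSRNOT00000042374, was above 0 in 2 Ctrl livers and 2 APAP livers and had a log2 fold change of 0.37 (SE 1.64, edgeR adjusted p = 0.89).

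The 4 members called lower after APAP all had overlapping groups, and 2 of them passed the filter only through 1 group. ENSRNOT00000090417 had 0.596, 0.978, 0.478, 1.26 and 1.07 CPM in Ctrl livers and 0.173, 0.582, 0.357, 0.372 and 0 CPM in APAP livers, with a log2 fold change of -2.20 (SE 0.79, edgeR adjusted p = 0.045). ENSRNOT00000058296 was at 0 in all APAP livers, and only Ctrl replicates 2 and 5 were above 0, at 0.325 and 0.299 CPM, with a log2 fold change of -3.94 (SE 1.28, edgeR adjusted p = 0.036). The others were ranks 31 and 54. In neutrophils, 3 of these 4 had between 10 and 100 CPM and 1 less than 10 CPM. Without any single Ctrl or APAP liver, 0 to 2 members were called lower by edgeR, and 4 to 6 had an unadjusted p under 0.05 where none was called.

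Between MDA and Ctrl livers, fewer members changed. Of the 71 tested, 3 were called higher and 2 lower by edgeR, or 4.23% and 2.82%, against 8.04% and 8.11% of all transcripts. Here too, all transcripts include more abundant ones. The median log2 fold change was 0.22 over the members and 0.02 over all transcripts. At an unadjusted p under 0.05, 7 were higher and 4 lower. MDA livers lay above Ctrl livers without overlap in 9 members tested and below them in 2, or 12.7% and 2.82%, against 22.2% and 2.41% of all transcripts. Without TMM, edgeR called 7 higher and 0 lower, with 3 lower at an unadjusted p under 0.05. The comparison uses the same Ctrl livers as that of APAP.

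The transcripts higher after MDA included both members described for APAP. ENSRNOT00000023965 had 2.59, 1.11, 0.748, 0.683 and 0.0817 CPM in MDA livers, at least 4.08-fold above Ctrl (edgeR adjusted p = 0.0034). ENSRNOT00000003908 had 0.836, 1.18, 0.504, 0.607 and 0.0805 CPM, at least 2.50-fold above Ctrl (edgeR adjusted p = 0.0063). These bounds set group means against the floor of 3 counts. MDA replicate 5 was the lowest sample for both and was itself under that floor. The third was rank 101, with a log2 fold change of 4.94.

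Both members called lower after MDA were above 0 in every Ctrl liver. ENSRNOT00000090417 had 0.344, 0, 0.314, 0.188 and 0.151 CPM in MDA livers, all below the Ctrl values given above, with a log2 fold change of -2.60 (SE 0.80, edgeR adjusted p = 0.038). ENSRNOT00000090468 had 0.940, 1.09, 0.895, 1.05 and 1.40 CPM in Ctrl livers and 0.676, 0.592, 0.543, 0.649 and 0.835 CPM in MDA livers. These groups did not overlap either, and the log2 fold change was -1.22 (SE 0.30, edgeR adjusted p = 0.0103). Both were higher in WBC than in spleen, with log2 fold changes of 2.67 and 1.76. The call of ENSRNOT00000090417 was lost in 10 of 23 other settings, among them leaving out any 1 of Ctrl replicates 1, 2, 4 and 5 or of MDA replicates 2 to 5, with adjusted p from 0.00045 to 0.087 over the settings, and that of ENSRNOT00000090468 in 2, library size only and limma, with adjusted p from 0.0033 to 0.097.

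Set directly against each other, the treated livers differed in 10 of the 71 members tested. APAP livers were higher in 8 and lower in 2 by edgeR, or 11.3% and 2.82%, against 12.1% and 12.2% of all transcripts. The share called higher was thus near that of all transcripts, which include more abundant ones. Of the 8 higher, 4 passed the filter only through the group in which they were high, as did 1 of the 2 lower. The count called higher fell to 3 members without APAP replicate 3 or MDA replicate 2, to 4 without APAP replicate 2, MDA replicate 1 or MDA replicate 3, and to 5 without APAP replicate 4 or MDA replicate 4. The median log2 fold change was 0.56 over the members and 0.01 over all transcripts. APAP livers lay above MDA livers without overlap in 8 members tested and below them in 2, against 12.6% and 7.05% of all transcripts.

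Of the 8 members higher after APAP than after MDA, 5 had at least 100 CPM in neutrophils, 2 between 10 and 100 CPM and 1 less than 10 CPM. ENSRNOT00000019415, at rank 4, had 1.24, 1.85, 4.87, 1.58 and 0.965 CPM in APAP livers and 0.249, 0, 0.150, 0.0900 and 0.0718 CPM in MDA livers. The groups lay well apart, with a log2 fold change of 3.89 (SE 0.96, edgeR adjusted p = 0.0080). Its Ctrl livers had 0 CPM except replicates 3 and 4, at 0.156 and 0.437 CPM, and against them the log2 fold change was 3.31 after APAP and -0.58 after MDA. In neutrophils it ranged from 329 to 644 CPM, and in WBC it was higher than in spleen, with a log2 fold change of 3.08.

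ENSRNOT00000093575 had 0.225, 0.503, 0.468, 1.81 and 0.200 CPM in APAP livers and was above 0 in only 1 MDA liver, at 0.131 CPM. The log2 fold change was 3.83 (SE 1.21, edgeR adjusted p = 0.0401), and it passed the filter only through the APAP livers. Its call was lost in 8 of 23 other settings, among them leaving out any 1 of APAP replicates 2 to 4 or of MDA replicates 1 to 4, with adjusted p from 0.0033 to 0.11 over the settings. It also varied among neutrophils, with 128 CPM in replicate 1 and 23.2 to 49.1 CPM in the others.

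In the other direction, ENSRNOT00000058296 had 0.350, 0.411, 0.343, 0.132 and 0.256 CPM in MDA livers and 0 CPM in all APAP livers. The log2 fold change, which depends on the prior count of edgeR where a group is at 0, was -4.76 (SE 1.29, edgeR adjusted p = 0.0201), and this member passed the filter only through the MDA livers. ENSRNOT00000035922 had 1.15, 0.830, 1.13, 0.923 and 1.03 CPM in MDA livers and 0.243, 0, 0.185, 0.0634 and 0.383 CPM in APAP livers. It did not overlap between the treatments, with a log2 fold change of -2.63 (SE 0.80, edgeR adjusted p = 0.026). Its call was lost in 3 of 23 other settings, which left out APAP replicate 3, APAP replicate 4 or MDA replicate 1, with adjusted p from 0.0004 to 0.055 over the settings. Its MDA livers also lay above all Ctrl livers, which had 0 to 0.562 CPM, although that difference was not called (log2 fold change 1.51, SE 0.77, edgeR adjusted p = 0.22).

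**Figure D5:**
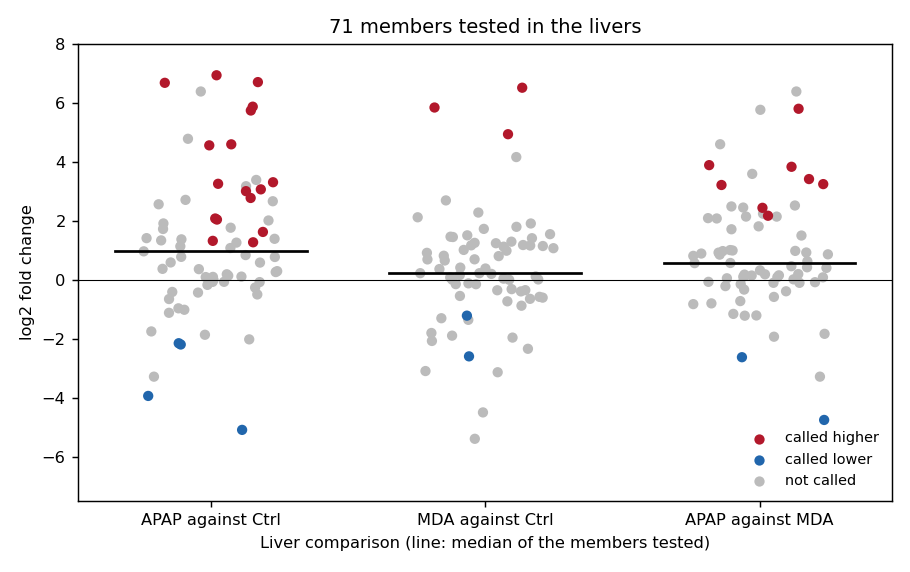
Log2 fold change (vertical) of the 71 members tested in each of 3 liver comparisons, with red for called higher, blue for called lower, grey for not called and a line at the median (0.96, 0.22 and 0.56). The APAP against Ctrl column holds 17 red and 4 blue points, and the MDA against Ctrl column 3 red and 2 blue points.

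Lists chosen by the same rule for other cells gave a measure of what such sparse transcripts did in the same livers. After APAP, the 150 monocyte transcripts gave 12 higher and 4 lower of 108 tested with a median log2 fold change of -0.09, those of NK cells 7 and 6 of 83, and those of B cells 1 and 8 of 81. After MDA the monocyte list gave 4 higher and 3 lower, the NK list 4 and 2 and the B cell list 2 and 1. The difference between these lists and the members was not tested.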

How the data were processed

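Paired-end libraries made with a directional kit were sequenced by the authors, trimmed and quantified with Salmon 1.6.0 on an index of Ensembl Rnor_6.0 cDNA, then imported with tximport in R 4.1.3. The methods name TPM, but the deposited values sum to 3429970 to 14146400 per sample (median 11019500) and 0% of those above 0 are whole, so they were used as estimated counts. In 1604 transcripts with low values, the smallest value of a transcript varied from 0.151 to 1.32 (5th to 95th percentile), as it would if transcript length had been divided out, so 1 deposited count is not 1 read, and floors and limits of 3 counts are on the scale of the file. All 61 columns were assigned by name, with 0 left over.

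Members were found by the rule given at the start. The members, the lists and the tests were chosen with earlier results of these data known. Values were rounded and tested with edgeR 4.0.16 (quasi-likelihood, robust, TMM, prior count 0.125) after a filter at 0.1 CPM on the average of the samples fitted, with Benjamini-Hochberg adjustment and a threshold of 0.05. WBC and spleen had 1 fit of 10 samples, and the 15 livers 1 fit. SE is the absolute log2 fold change over the square root of F. The scripts were tested on simulated data. Identifiers printed are the 2 of the highest ratio, the 2 of the highest neutrophil mean, those at the edge of the list, those with the highest and lowest WBC share of the neutrophil level, and up to 2 called and separated in each direction of a comparison. Ranks cited beyond these were chosen after their values were seen. Alternatives were library size only, DESeq2 size factors, DESeq2 1.42.0, no filter, a filter at 1 CPM, only the groups compared, the replicate number as a block and leaving out each sample. Unrounded counts and limma 3.58.1 on log2(CPM + 0.1) were added after the data were seen.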

Additional observations from a re-analysis of the deposited data

Results flagged for a closer look

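In the groups of 5 or 6 samples, a sample was flagged when its gap to the nearest other sample exceeded the critical share of the range (Dixon's 95% value). Of 119 groups of values, from the named members and the summed level of each group, 11 had such a sample. At 1 in 20 this would be 5.95, but that number does not measure chance here. A group with only 1 value above 0 is always flagged, and a group at 0 throughout never is. ENSRNOT00000011314 stood at 365 CPM in 1 neutrophil sample and at 0 in the other 5. ENSRNOT00000087826 stood at 5.23 CPM in 1 spleen. ENSRNOT00000067781 was above 0 in 1 liver of each group, at 0.0897 CPM after vehicle, 0.241 CPM after APAP and 0.489 CPM after MDA. ENSRNOT00000029755 was above 0 in 1 MDA liver, at 0.241 CPM. ENSRNOT00000019415 had 1 APAP liver at 4.87 CPM. ENSRNOT00000093575 had 1 neutrophil sample at 128 CPM, 1 APAP liver at 1.81 CPM, 1 Ctrl liver at 0.0346 CPM and 1 MDA liver at 0.131 CPM.

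Of the 10 members called between APAP and MDA livers by edgeR, 4 are named here. They were picked for separated groups and the largest fold changes in each direction, so these values add no support to the calls. ENSRNOT00000093575 and ENSRNOT00000058296 passed the filter only through the group in which they were high. The log2 fold change was 3.89 for ENSRNOT00000019415, 3.83 for ENSRNOT00000093575, -4.76 for ENSRNOT00000058296 and -2.63 for ENSRNOT00000035922. The call of ENSRNOT00000093575 was lost in 8 of 23 other settings and that of ENSRNOT00000035922 in 3 of 23.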

How the results depend on the processing

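The excess of members higher in WBC than in spleen had its direction and size under all settings run, with 94 (a filter at 1 CPM) to 112 called higher and 105 to 112 when a sample was left out. Lower calls there were 2 with DESeq2, limma and the replicate block, 0 with members chosen without neutrophil replicate 5 (2 at an unadjusted p under 0.05), and 1 to 2 when a sample was left out. The liver calls moved more. After APAP, 27 members were higher and 2 lower with library size only, 30 and 1 with limma, and 10 and 0 (10 in all) with the replicate number as a block, and lower calls were 1 with DESeq2, 2 with no filter and 1 with only the groups compared. Leaving out a liver gave 10 to 18 calls, 10 to 16 higher and 0 to 3 lower. After MDA, 7 were higher and 0 lower with library size only, 12 and 1 (13 in all) with limma, and 1 lower with the replicate block. Leaving out a liver gave 1 to 2 lower. Between APAP and MDA livers, 5 were higher with the replicate block, and leaving out a liver gave 4 to 11 calls, 3 to 8 higher and 1 to 3 lower. The causes of these shifts were not tested. The replicate numbers were not used as pairs in the main fits. Correlations of same-numbered deviations ran from -0.29 to 0.17. Between APAP and MDA livers, replicates 3, 4 and 5 matched their own number best, with correlations of 0.146, 0.069 and 0.110. Between APAP and Ctrl livers replicate 1 did, and no sample did between MDA and Ctrl livers or between WBC and spleen. Under the block, ENSRNOT00000067781 had an adjusted p of 0.082 between WBC and spleen, the highest of a range from 3.91e-05 over the settings. Of the 150 members, 141 to 146 were found again without a neutrophil sample, 130 with 0.1 CPM in place of 1 CPM in the ratio and 132 with medians. The filter left 79 of 150 members untested in liver, and without it 122 were tested.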
